A study of Mus musculus with 24 samples.

Results

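Resting naive CD4 T cells with and without Trim28 were compared on 8 arrays, the 4 unstimulated CKO and the 4 unstimulated WT arrays of a series of 24. The arrays were chosen by their labels, and the comparison covered all 16489 genes tested. CKO stands for Trim28CKO, a conditional knockout restricted to T cells, and the Cre driver is not named in the labels. The cells came from female C57BL/6 mice, aged 6 weeks for replicates 1 to 3 and 7 weeks for replicate 4 in both genotypes. They were sorted as CD4+CD62+CD25- and were not stimulated. The other 16 arrays held naive cells after 13 h on anti-CD3 and anti-CD28 coated on plates, and regulatory T cells (Treg), each from both genotypes. They entered the fit as further groups and are used below only where a genotype difference in resting cells is set against that in another state. Since no label states that the arrays of a group hold RNA of separate mice, the p-values rest on the spread between arrays, which may be technical.

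TRIM28 (KAP1) is a corepressor that does not bind DNA itself. KRAB zinc finger proteins bring it to their sites, where it recruits the histone methyltransferase SETDB1 and HP1 proteins, and a repressive chromatin mark on histone H3 spreads around the site. It is best known for silencing endogenous retroviruses, and genes close to a silenced element can be repressed with it. Naive T cells are small resting cells with low rates of protein synthesis.

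Levels below are log2 signals from which the 75th percentile of the same array was subtracted, so that 0 is that percentile. A difference is CKO minus WT on this scale, with the standard error of a limma fit over all 24 arrays after ±, and a gene was called at a Benjamini-Hochberg adjusted p under 0.05 over all genes. Trim28 itself stood at 2.31, 2.47, 2.57 and 2.46 on WT arrays 1 to 4 and at 0.58, 0.89, 1.00 and 1.29 on CKO arrays 1 to 4. The groups did not overlap, and the signal that remained in CKO cells was well above background on 4 of 4 arrays. The fall was 2.85-fold (-1.51 ± 0.17, limma adjusted p = 4.45e-06). The position of its probe relative to the deleted exons is not given in the sources used here.

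On the 8 arrays the 75th percentile of the signal ran from 165 to 293 and between 54.6% and 61.2% of probes were well above background. Correlations across genes were 0.963 to 0.988 among WT arrays, 0.981 to 0.988 among CKO arrays and 0.956 to 0.980 between genotypes. Each of 4 slides carried the WT and the CKO array of 1 replicate number. All 16 markers of naive CD4 T cells were detected. Their summed level was 9.61 to 9.96 in WT and 9.23 to 9.42 in CKO, so that the groups did not overlap. Of the 16 members 7 fell, against 10.9% of all genes tested.

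Of the 16489 genes 3088 were called (18.7%), 1291 higher (7.83%) and 1797 lower (10.9%) in CKO. The 2 directions differed in size. Of the calls under 0.5 on the log2 scale 108 were rises and 382 were falls, whereas of those of 2 or more 140 were rises (0.849% of all genes) and 33 were falls (0.2%). Called falls were thus mostly small and the large differences were mostly rises. The direction also moved with the level of the gene. With genes divided by mean level into 4 equal classes, in the lowest class 367 genes rose and 118 fell, with a median difference of 0.25 over all genes of the class, while in the highest class 181 rose and 566 fell, with a median of -0.12.

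**Figure D1:**
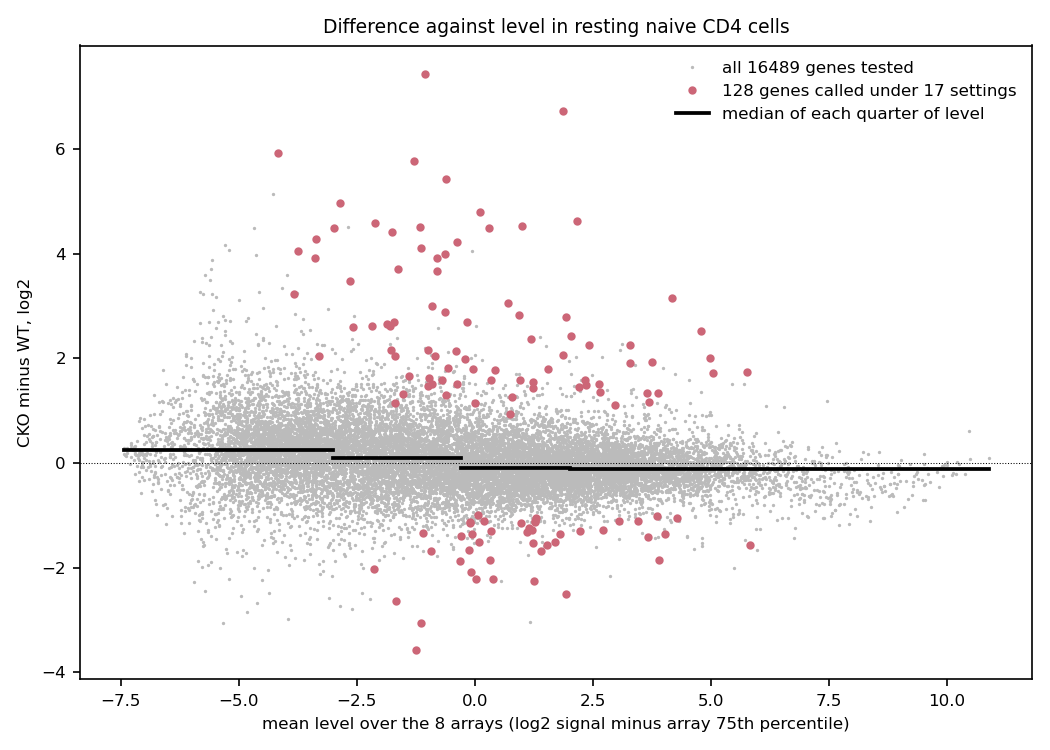
The difference between CKO and WT resting naive CD4 cells (y axis, log2) against the mean level over the 8 arrays (x axis, log2 signal minus the array's 75th percentile) for the 16489 genes tested, grey. Black lines give the median of each of 4 classes of level, from 0.25 in the lowest to -0.12 in the highest, and red points are the 128 genes called under 17 settings of the analysis, most of which lie above 0.

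The split of calls depended on how arrays were scaled. With each array centred on its brightest shared probes in place of the 75th percentile, 2303 genes rose and 661 fell, which is 77.7% higher against 41.8%. That scaling moved the median difference of all genes from 0.01 to 0.21. With the slide as a block, fitted here and below to the 8 arrays alone, 300 genes were called, 193 higher (1.17%) and 107 lower (0.649%). Those arrays without a block gave 1700 calls, 689 higher and 1011 lower. How much of the drop from 3088 came with fewer arrays and how much with the slides was not tested. A set of 128 genes (0.776%) was called in the same direction under 9 settings that used all 8 compared arrays and when each of the 8 arrays was left out, 17 settings in all. Of these, 84 rose and 44 fell, 127 had groups that did not overlap (20.5% of all genes had such groups, 8.18% higher and 12.3% lower), and 128 of 128 differed in the same direction on 4 of 4 slides. The set was chosen after its values were seen, on these arrays, and the counts describe it. Settings that raised low signals to the detection limit or changed the filter on dim probes were not among the 17. The set holds genes with no WT array well above background, such as Cthrc1.

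The rises in that set began from low as well as moderate WT levels. Pgpep1l encodes a pyroglutamyl peptidase-like protein. It stood at -0.64, -0.09, -0.39 and 0.55 on the WT arrays and at 4.24, 4.48, 4.47 and 4.72 on the CKO arrays. Every CKO array was far above every WT array, and the rise was 24.7-fold (4.62 ± 0.32, limma adjusted p = 3.59e-09). Cacna1b, the pore subunit of the N-type calcium channel of neurons, read -3.80, -3.51, -5.75 and -4.62 in WT and -0.04, 0.35, 0.33 and 0.07 in CKO. It rose by 4.60 ± 0.44 (limma adjusted p = 4.86e-07), and its other probe gave 3.98. Its WT signal was well above background on 3 of 4 arrays, and the WT spread was wider than the CKO spread.

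Ak7, an adenylate kinase of motile cilia, gave -4.29, -3.84, -3.73 and -4.01 in WT and 0.80, 0.39, 0.01 and 0.59 in CKO. The rise was 21.4-fold (4.42 ± 0.19, limma adjusted p = 2.18e-12), and the other probe of the gene gave 4.71. B4galt4, a galactosyltransferase, read -2.50, -1.76, -3.29 and -2.39 in WT against 1.84, 1.61, 1.77 and 1.77 in CKO, a rise of 4.23 ± 0.23. Sytl3, a synaptotagmin-like protein of vesicle docking, rose from -2.65, -2.49, -3.54 and -1.84 to 1.61, 1.34, 1.53 and 0.98 (3.99 ± 0.43). Osbpl3, an oxysterol-binding protein, rose from -2.83, -2.11, -3.62 and -2.44 to 1.35, 1.28, 0.97 and 1.08 (3.92 ± 0.24), with 3.93 by its other probe. None of these genes had a WT array within the CKO range, but the largest changes were chosen among genes without overlap. M1ap, a gene of male meiosis, rose by 3.49 ± 0.26 and Prr5, a subunit of the mTORC2 kinase complex, by 4.97 ± 0.36. In WT the Prr5 signal was well above background on 2 of 4 arrays.

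Genes that WT cells already expressed rose as well. Trim24, a member of the TIF1 family to which Trim28 belongs, stood at 2.80, 2.79, 2.26 and 2.53 in WT and at 5.79, 5.51, 5.82 and 5.90 in CKO. Its replicates spread little, and the rise was 8.94-fold (3.16 ± 0.14, limma adjusted p = 2.18e-12), with 3.37 to 4.44 by its other 2 probes. Nars2, the mitochondrial asparaginyl-tRNA synthetase, rose from -2.17, -2.46, -2.11 and -2.85 to 0.15, 0.67, 0.91 and 0.71 (3.00 ± 0.20). Jmy, an actin nucleation factor and p53 cofactor, rose from 0.80, 0.12, 0.22 and 1.02 to 3.25, 3.30, 3.56 and 3.20 (2.79 ± 0.20). The rise of Klhl6, a Kelch-like adaptor of a ubiquitin ligase, was 2.26 ± 0.20, but its other probe gave 1.53. Ube2e2, a ubiquitin-conjugating enzyme, rose by 2.71 ± 0.24 and by 1.12 on its other probe, so that probes of the gene disagreed in size. Mindy3, a deubiquitinase, rose by 2.26 ± 0.12, and its 3 further probes gave 1.79 to 2.17.

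Among the brightest genes that rose was Resf1, the retroelement silencing factor, a partner of SETDB1. It stood at 4.92, 4.91, 4.42 and 5.32 in WT and at 6.52, 6.53, 6.85 and 6.64 in CKO, and the rise was 3.34-fold (1.74 ± 0.16), with 1.14 to 1.68 by its other 2 probes. Cyp2s1, a cytochrome P450, rose by 1.72 ± 0.25 and Dnah8, an axonemal dynein, by 1.33 ± 0.28. Metabolic genes that rose in the set included Acadm, the medium-chain acyl-CoA dehydrogenase of fatty acid oxidation (1.93 ± 0.15), Gpat3, an enzyme of triglyceride synthesis (2.62 ± 0.39), Prodh, proline dehydrogenase (1.51 ± 0.15), Fntb, the beta subunit of farnesyltransferase (1.78 ± 0.20), and Hsd17b4, an enzyme of peroxisomal fatty acid oxidation (1.16 ± 0.15). Others in the set fell: Sqle, squalene epoxidase of sterol synthesis (-1.51 ± 0.29), Gcat of threonine breakdown (-1.36 ± 0.23), Ass1, argininosuccinate synthase of arginine synthesis (-1.11 ± 0.21), and Pecr, a peroxisomal enoyl-CoA reductase (-0.98 ± 0.17). Hdac4, a histone deacetylase, rose by 1.58 ± 0.20 and Bhlhe40, a transcription factor of T cell cytokine control, by 1.58 ± 0.25. Of the 4 WT arrays, array 4 was the highest for Hdac4, at 2.20 against 1.31 to 1.38 on the others.

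**Figure D2:**
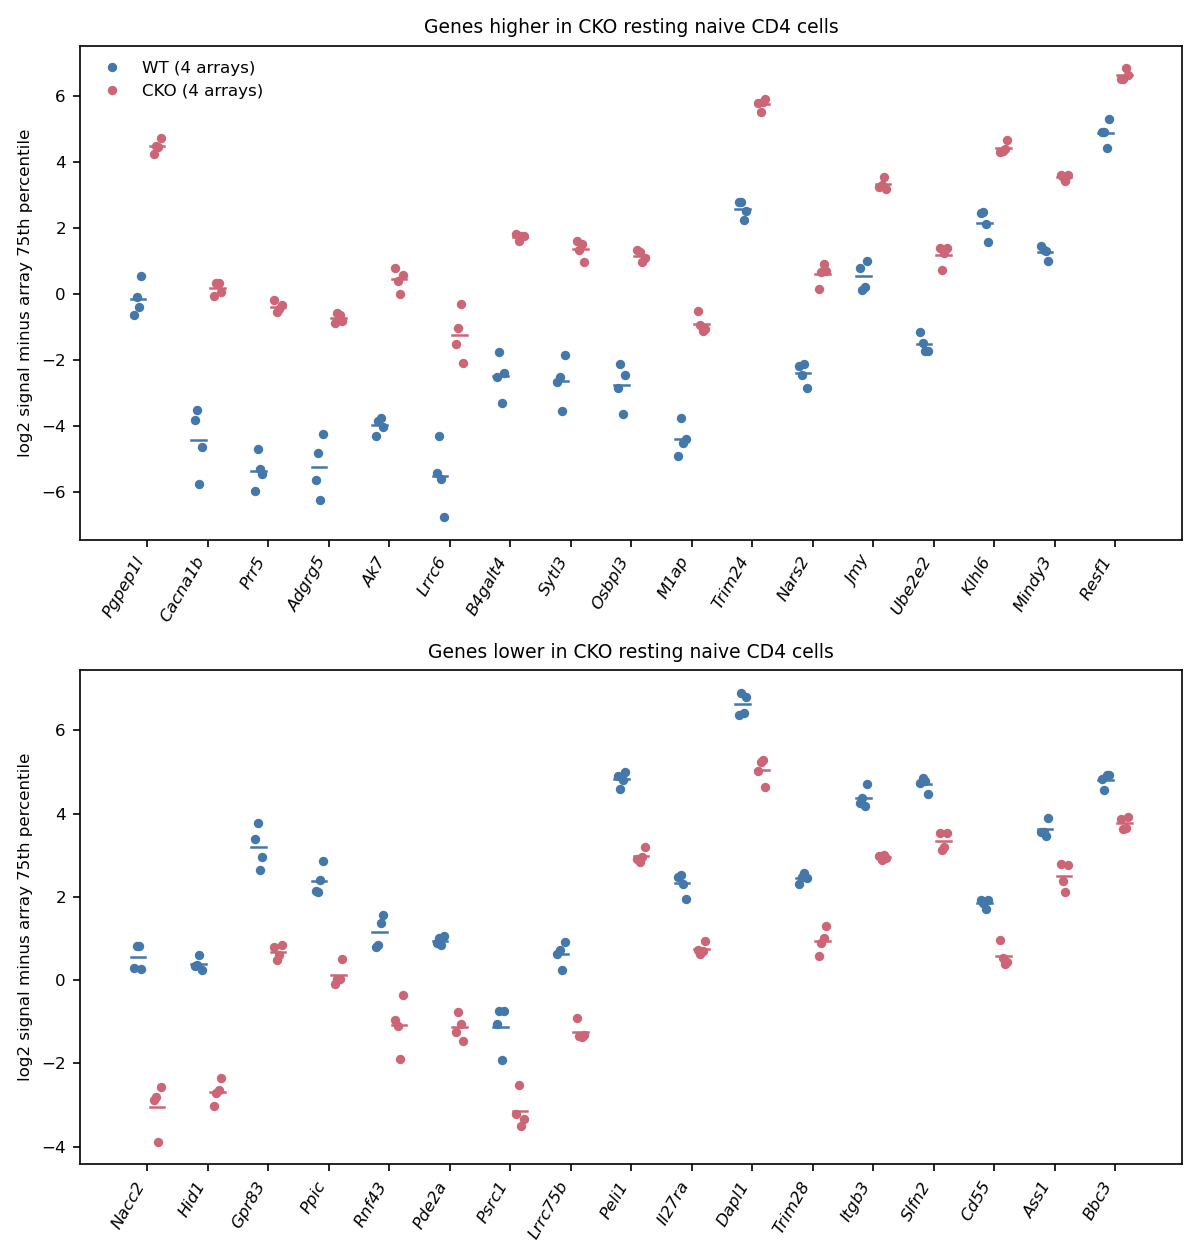
Levels (y axis, log2 signal minus the array's 75th percentile) of 17 genes higher and 17 genes lower in CKO resting naive CD4 cells, on each of 4 WT (blue) and 4 CKO (red) arrays, with lines at the group means. The groups do not overlap for any gene shown, which was a condition in choosing the largest changes. The spread is wider for dim genes such as Cacna1b in WT than for bright ones such as Trim24.

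The promoters of 4 genes are shown because they span the range of sequence among the genes that changed: Ak7 and Trim24 rose with measured levels in WT, Kcnf1 was above background in CKO only, and Nacc2 had the largest fall. Each runs from 250 bases before the start of the gene to 50 bases after it, 5′ to 3′ on the strand of the gene, from RefSeq on build GRCm38.p6. CG dinucleotides are in capitals. The table used holds 2 promoters for Trim24 and for Nacc2, of which 1 is shown. Ak7 lies at chr12:105705732-105706031 on the plus strand has 12 CG, Trim24 at chr6:37870561-37870860 on the plus strand with 33, Kcnf1 at chr12:17176839-17177138 on the minus strand with 3, and Nacc2 at chr2:26122762-26123061 on the minus strand with 39.
Ak7: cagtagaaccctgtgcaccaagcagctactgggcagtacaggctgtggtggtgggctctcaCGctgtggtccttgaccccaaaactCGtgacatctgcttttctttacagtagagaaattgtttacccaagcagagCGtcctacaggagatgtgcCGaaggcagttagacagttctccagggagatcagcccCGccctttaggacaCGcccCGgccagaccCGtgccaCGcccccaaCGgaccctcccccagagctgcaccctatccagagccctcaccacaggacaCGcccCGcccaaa
Trim24: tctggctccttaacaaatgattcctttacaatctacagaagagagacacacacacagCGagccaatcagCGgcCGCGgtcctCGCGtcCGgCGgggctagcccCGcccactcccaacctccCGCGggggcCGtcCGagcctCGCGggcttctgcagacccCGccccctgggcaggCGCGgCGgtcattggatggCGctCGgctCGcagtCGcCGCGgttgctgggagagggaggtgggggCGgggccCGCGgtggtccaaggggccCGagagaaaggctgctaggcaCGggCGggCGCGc
Kcnf1: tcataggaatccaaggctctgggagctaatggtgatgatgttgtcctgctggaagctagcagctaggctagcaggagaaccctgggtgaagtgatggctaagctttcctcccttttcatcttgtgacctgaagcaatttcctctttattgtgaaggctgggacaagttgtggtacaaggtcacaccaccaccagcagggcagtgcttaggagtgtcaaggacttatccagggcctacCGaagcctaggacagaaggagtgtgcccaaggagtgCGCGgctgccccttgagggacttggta
Nacc2: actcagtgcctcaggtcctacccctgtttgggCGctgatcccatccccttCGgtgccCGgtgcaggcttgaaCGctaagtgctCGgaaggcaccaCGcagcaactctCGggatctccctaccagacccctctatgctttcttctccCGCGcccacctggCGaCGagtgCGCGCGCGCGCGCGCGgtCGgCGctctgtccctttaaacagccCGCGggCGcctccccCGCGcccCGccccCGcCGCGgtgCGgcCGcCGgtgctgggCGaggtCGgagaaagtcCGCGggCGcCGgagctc

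A promoter was found for 10288 of the genes tested. Promoters poor in CG, with 3 or fewer, made up 8.83% of them all. The share was 12.4% among the 680 genes that rose and 4.53% among the 1257 that fell. It was 20.8% of 77 genes that rose by at least 2 without overlap, and 24.3% of 37 genes above background in CKO only. The level of a gene moved with this share too: it was 20.6% in the lowest class of level and 3.97% in the highest. Within the lowest class 24.3% of the 148 genes that rose had such promoters, and within the highest class 4.72% of the 127 that rose. The part of level in the difference between rises and falls was not tested. The letters TGCCGC, the core bound by the KRAB zinc finger protein ZFP57, were searched on both strands and found in 19.7% of promoters of genes that rose, 20.8% of those that fell and 18.5% of all. They occur in none of the 4 promoters shown. A match is a string of letters and not a known site.

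A further group of genes was above background in CKO cells only: well above background on at least 3 of 4 CKO arrays and on no WT array, called, and without overlap. There were 73 (0.443%), of which 39 have an established gene name. Their size is given as a bound, the mean of the CKO arrays over a WT mean in which a WT signal below the lowest one called well above background on its array is raised to that one. Bounds ran from 1.15-fold to 16.9-fold with a median of 2.21, and 44 were at least 2-fold. Cthrc1, a secreted protein of collagen matrix, had the largest bound, at least 16.9-fold higher, with WT arrays at -7.40, -7.24, -7.25 and -6.63 and CKO arrays at -1.50, -1.16, -0.74 and -1.42. Spats2 was at least 8.42-fold higher in CKO. Kcnf1, a modifying subunit of voltage-gated potassium channels, read -7.33, -6.56, -6.72 and -7.07 in WT and -2.81, -2.58, -2.75 and -1.51 in CKO, at least 7.30-fold higher. Cnr1, the cannabinoid receptor of brain, was at least 6.26-fold higher, Dyrk4, a protein kinase of testis, at least 4.87-fold, Ntng1, a neuronal netrin, at least 4.31-fold, and Lama4, a laminin chain of vessel walls, at least 4.19-fold. Abca6, a lipid transporter, was at least 2.93-fold higher and Rab15, a small GTPase of endosomes, at least 2.68-fold. Others named were Syce1 of the synaptonemal complex (at least 2.01-fold), Mybpc2 of fast muscle (at least 3.50-fold), Itga2, an integrin that binds collagen (at least 2.12-fold), and Col15a1, a basement membrane collagen (at least 1.63-fold).

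The count of these weak genes depended on how low signals were treated. After normexp background correction 2 such genes were left in CKO, and 3 when all signals below the highest detection limit of the arrays were set to that limit. The reverse pattern was rarer. Above background in WT only were 16 genes (0.097%), with bounds of 1.10-fold to 3.52-fold, of which 3 were at least 2-fold. They were led by Rps6kl1, a ribosomal S6 kinase-like gene (at least 3.52-fold lower in CKO), Car12, a carbonic anhydrase (at least 3.16-fold), and Apol10b, an apolipoprotein L gene (at least 2.45-fold). Gzmk, a granzyme of memory T cells, was at least 1.60-fold lower in CKO, with WT arrays at -4.89, -3.21, -4.71 and -4.72, of which array 2 was the highest.

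Genes of the motile cilium and axoneme, a structure that T cells lack, rose more often than they fell. Of 36 members tested 10 rose and 1 fell, against 7.83% and 10.9% of all genes, with a median of 0.47 against 0.01 for all genes. Over the lowest class of level, of any function, the median was 0.25, with 367 rises and 118 falls. Several members were dim in WT, and the part of level in the counts of the list was not tested. This list was not all of 1 kind. Ak7, described above, and Lrrc6, a dynein arm assembly factor, rose most. Lrrc6 read -5.40, -4.29, -5.60 and -6.75 in WT and -1.52, -1.02, -0.29 and -2.08 in CKO (4.28 ± 0.50), and in WT it was well above background on 1 of 4 arrays. Iqcg, a component of the axonemal dynein regulator, rose by 2.28 ± 0.28, Dnah9 by 1.78 ± 0.31, Lrrc23, a radial spoke protein, by 1.11 ± 0.27 and Bbs2, a subunit of the BBSome that sorts cargo to cilia, by 1.09 ± 0.31. Ift80 of intraflagellar transport (0.80 ± 0.16), Rfx3, the transcription factor of ciliary genes (0.72 ± 0.18) and Wdr78 (0.44 ± 0.12) rose less. Bbs9, another BBSome subunit, fell by 0.94 on the log2 scale. A second probe of Dnah9 gave 0.00, that of Bbs9 0.22 and those of Rfx3 -0.06 to 0.28. Cfap53, a ciliary protein that the list did not hold, rose by 3.91 ± 0.45.

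The cilium count held its direction under each scaling tried. It had 12 rises and 1 fall on the brightest-probe scale, where 14% of all genes rose and 4.01% fell. After quantile normalization it had 10 and 2, where 1278 of all 16489 genes rose and 1731 fell. On slides 1 to 4 the median of the list was 0.41, 0.34, 0.73 and 0.31, against 0.08, -0.06, 0.02 and -0.09 for all genes. With the slide as a block 4 members rose and 0 fell by limma, against 1.17% and 0.649% of all genes. At an unadjusted p under 0.05 there were 14 higher and 3 lower, against 2107 and 2336 of all 16489 genes.

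Other genes of differentiated tissues changed in both directions, and 7.83% of all genes tested rose and 10.9% fell. In the extracellular matrix list 7 of 46 rose and 3 fell, with a median of 0.21. Lama4, Col15a1 and Fbln2 were among the genes above background in CKO only, and Plod2, a collagen lysyl hydroxylase, rose by 1.43 ± 0.40. Mmp14, a membrane matrix protease, fell from -3.12, -1.90, -1.06 and -1.08 to -3.61, -4.36, -5.05 and -4.48 (-2.59 ± 0.54). Ion channel genes rose in 4 and fell in 8 of 62. The split turned to 9 and 4 on the brightest-probe scale, where 14% of all genes rose and 4.01% fell, a turn that all genes shared. It was 7 and 5 after quantile normalization, where 1278 of all 16489 genes rose and 1731 fell. Those that rose, beside Cacna1b, included Kcna2, a potassium channel of axons (2.60 ± 0.38). Those that fell included channels of T cell calcium signalling: Kcnn4, the calcium-activated potassium channel, by 0.99, and Orai1, the pore of the calcium release-activated channel, by 0.97. Among muscle genes 5 of 29 rose and 4 fell (2 and 4 after quantile normalization), and among genes of synapses and neurons 3 of 40 rose, with Sytl3 the largest, and 3 fell, with Ntrk3, a neurotrophin receptor, at -1.81 ± 0.28. Of 29 liver and plasma genes none rose and 2 fell by limma, and at an unadjusted p under 0.05 1 were higher and 3 lower. The 2 were Igfbp4, an insulin-like growth factor binding protein, and Ass1. A list of complement, coagulation and serpin genes, made in part by the liver, had 3 rises and 3 falls among 38, with a median of 0.39. Its largest change was that of F12, coagulation factor XII, which rose by 5.43 ± 0.34.

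Some gene families that sit in silenced clusters showed few calls. Limma called none of the 5 protocadherins and 7 Hox genes that passed the filter on dim probes, of 40 and 38 on the array. At an unadjusted p under 0.05, 1 protocadherin was higher and 0 Hox genes differed. Since most members were not above background, the counts describe the few that could be measured. Of 43 listed olfactory, taste and pheromone receptors on the array 6 passed the filter and limma called none (1 was higher at an unadjusted p under 0.05). Counted over all 116 tested genes with an Olfr symbol, which was chosen after values were seen, 10 rose and none fell, or 8.62% against 7.83% of all genes. Olfr1032 and Olfr661 were above background in CKO only, at least 2.21-fold and 1.57-fold higher. Apart from these families, of 31 replication-dependent histone genes H1f2 rose (0.88 ± 0.21) and none fell, where 10.9% of all genes fell. Rises numbered 5 after quantile normalization, where 1278 of all 16489 genes rose. They numbered 6 on the brightest-probe scale, where 14% of all genes rose.

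Among the large falls, Nacc2, a BTB transcriptional repressor, read 0.29, 0.81, 0.82 and 0.26 in WT and -2.88, -2.80, -3.88 and -2.57 in CKO, a difference of -3.58 ± 0.33 (limma adjusted p = 2.19e-07). Hid1, a protein of secretory granules and the Golgi, stood at 0.34, 0.36, 0.61 and 0.25 in WT and at -3.01, -2.71, -2.63 and -2.36 in CKO (-3.07 ± 0.42). The groups were far apart for both genes. Ppic, a cyclophilin, fell from 2.15, 2.11, 2.40 and 2.86 to -0.08, 0.04, 0.02 and 0.52 (-2.26 ± 0.20). Psrc1, a microtubule-binding p53 target, fell by 2.03 and by 1.21 to 1.75 on its other 2 probes. Pde2a, a phosphodiesterase that cGMP activates, fell from 0.89, 1.02, 0.84 and 1.05 to -1.24, -0.76, -1.05 and -1.46 (-2.08 ± 0.19), and its other probe gave -0.80. Ptgir, the prostacyclin receptor, fell by 2.06, but its other probe gave 0.74, so the gene has no settled direction.

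Bright genes that fell included regulators of T cell activation. Peli1, a ubiquitin ligase that restrains NF-kappaB signalling in T cells, stood at 4.90, 4.60, 4.82 and 4.99 in WT and at 2.92, 2.83, 2.96 and 3.20 in CKO, a fall of 3.60-fold (-1.85 ± 0.12, limma adjusted p = 2.40e-09). Its other 2 probes gave -1.63 and -0.49. Il27ra, the receptor chain for interleukin-27, read 2.48, 2.54, 2.32 and 1.95 in WT and 0.72, 0.63, 0.70 and 0.95 in CKO (-1.57 ± 0.18). Slfn2, a Schlafen protein needed for T cell quiescence, fell from 4.74, 4.85, 4.78 and 4.48 to 3.54, 3.12, 3.20 and 3.55 (-1.36 ± 0.17). Itgb3, the beta-3 integrin chain, fell by 1.42 and by 0.56 on its other probe. Dapl1, an epithelial differentiation gene also high in naive T cells, fell from 6.36, 6.91, 6.41 and 6.81 to 5.02, 5.25, 5.28 and 4.65 (-1.57 ± 0.34). Cd55, which protects cells from complement, fell by 1.27, Bbc3 (PUMA), a p53-induced killer protein, by 1.05 and Card19, a CARD adaptor, by 1.27. For these genes the 4 CKO arrays lay below the 4 WT arrays, which was a condition in choosing the largest falls.

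Ms4a genes, which encode small tetraspan proteins on chromosome 19, fell in 5 of 8 members tested and rose in none. Over all genes 10.9% fell and 7.83% rose, and on the brightest-probe scale 4.01% fell and 14% rose. Ms4a4b, abundant in naive T cells, stood at 7.29, 7.36, 7.20 and 7.06 in WT and at 6.84, 6.57, 6.63 and 6.51 in CKO (-0.59 ± 0.17). Ms4a6b fell by 0.64, Ms4a4c by 1.04, Ms4a4d by 1.62 and Ms4a6d by 2.16 on the log2 scale. All 4 slides had medians below 0 for the list (-0.47, -0.85, -0.60 and -0.61), and on the brightest-probe scale 5 of 8 fell and 1 rose. With the slide as a block limma called 1 of 8 lower, against 0.649% of all genes. Within this family the genes are alike in sequence, so probes may read more than 1 of them. Of 21 MHC region genes tested 8 fell and none rose, with a median of -0.42. On the brightest-probe scale limma called none lower and 1 higher, while the median was -0.22 against 0.21 for all genes, and after quantile normalization 1 was called lower at a median of -0.14.

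Lists of housekeeping processes held many small falls, read here against 10.9% of all genes that fell and 7.83% that rose. Of 43 translation factors 17 fell and 1 rose, and of 34 genes of mitochondrial import and dynamics 13 fell and none rose. In the secretory pathway list 15 of 46 fell and 2 rose, in nuclear pore and transport 12 of 36 fell, in nucleotide and one-carbon synthesis 10 of 31 fell and 1 rose, in the antioxidant list 11 of 42 fell and 2 rose, and in lysosome and autophagy 9 of 48 fell. Medians were -0.27 for translation factors, -0.47 for mitochondrial import, -0.30 for the secretory pathway and -0.29 for the nuclear pore, against 0.01 for all genes. Over the highest class of level, of any function, the median was -0.12.

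The size of these counts followed the scaling, with 14% of all genes higher and 4.01% lower on the brightest-probe scale. On the brightest-probe scale 8 translation factors fell and 2 rose, and 7 genes of mitochondrial import fell and 2 rose. Nuclear pore genes then had 7 rises and 4 falls and secretory genes 6 rises and 2 falls, so that the split of both lists turned, although their medians stayed below 0 (-0.09 and -0.10 against 0.21 for all genes). Lysosome genes had 2 of each. Nucleotide synthesis genes kept more falls than rises (7 and 3), as did antioxidant genes (8 and 3). With the slide as a block limma called 1 antioxidant gene lower and 0 genes of the other 6 lists. Of all genes 1.17% were called higher and 0.649% lower in that fit, so few calls could be found in lists of this size. At an unadjusted p under 0.05 there were 17 lower translation factors, 15 lower genes of mitochondrial import and 14 lower secretory genes, against 2336 of all 16489 genes.

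**Figure D3:**
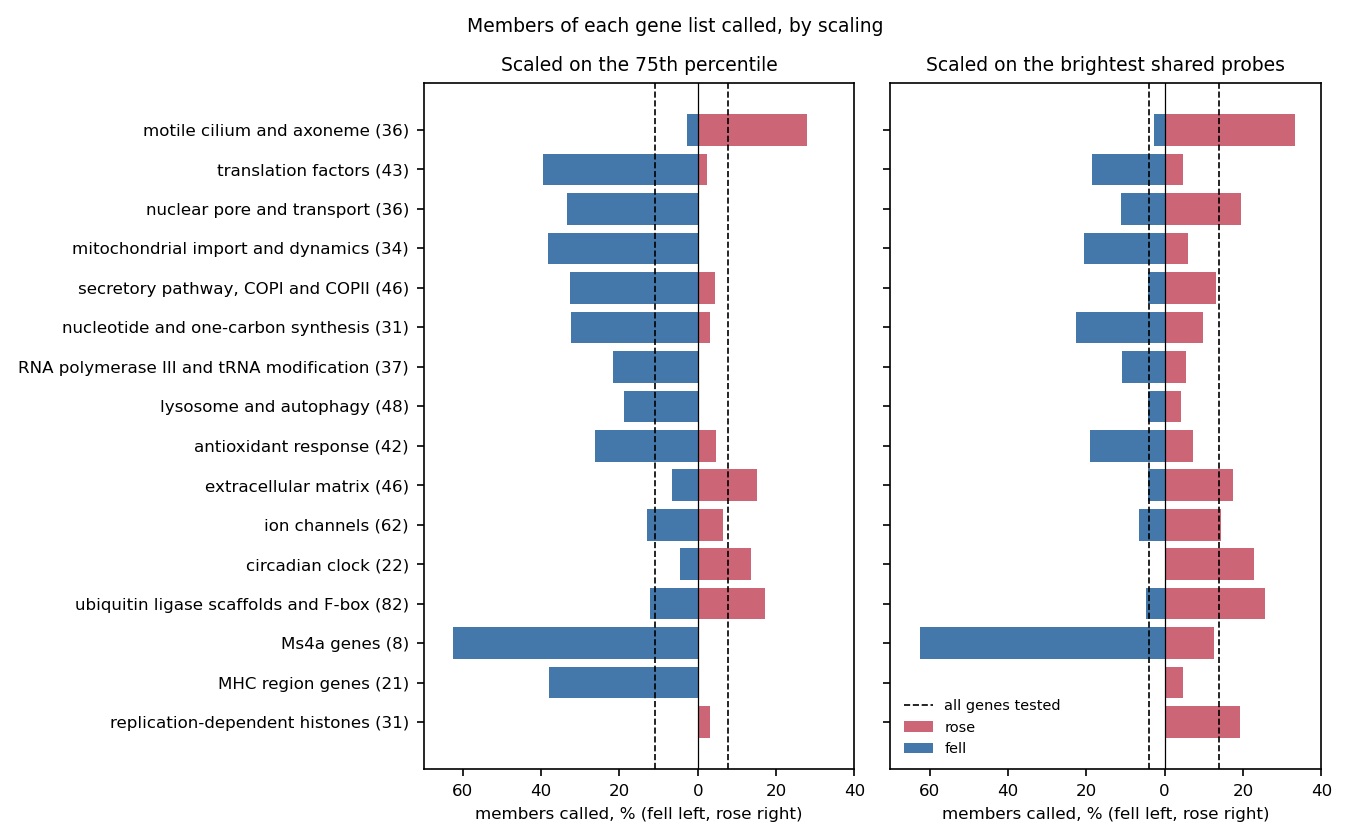
Share of tested members (x axis, percent) that fell (blue, left) or rose (red, right) in 16 gene lists, with the number tested in parentheses, when arrays were scaled on the 75th percentile (left panel) or on the brightest shared probes (right panel). Dashed lines mark the shares over all 16489 genes tested. The falls in translation, nuclear pore, secretory and MHC region genes shrink from left to right, as does the share of all genes that fell (10.9% to 4.01%). The cilium list keeps 10 to 12 rises, while the share of all genes that rose grows from 7.83% to 14%.

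Single members show how the replicates behaved. Eif3i, a subunit of the initiation factor that holds the small ribosomal subunit, stood at 2.54, 2.88, 2.73 and 0.93 in WT and at 0.20, 0.62, 0.59 and 1.35 in CKO (-1.58 ± 0.40, limma adjusted p = 0.0121). WT array 4 lay within the CKO range. The same array was close to the CKO arrays for Eif3f, at 4.50 against 5.33 to 5.50 on the other WT arrays, for Eef2, the elongation factor of translocation (4.98 against 5.52 to 5.72, other probes -0.73 and 0.00 in difference), for Nup37 of the nuclear pore (-1.82 against -0.48 to -0.27) and for Tomm20, the receptor of the outer mitochondrial membrane (3.40 against 4.14 to 4.42). Without that array 4591 genes were called, the most of the 8 fits that left out 1 array, and without WT array 2 there were 1385, the fewest. Other members separated the genotypes on all arrays. Trmt61a, a tRNA methyltransferase, read 1.90, 1.86, 1.79 and 1.75 in WT and 0.95, 0.70, 0.32 and 0.93 in CKO (-1.10 ± 0.17), Impdh2, the rate-limiting enzyme of guanine nucleotide synthesis, fell by 0.75 and Shmt1, serine hydroxymethyltransferase, by 1.03, while the other probe of Shmt1 gave -0.14. Timm9, a chaperone of mitochondrial import, fell by 1.04, but its other 2 probes gave 0.05 and 1.14.

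Among antioxidant genes Txnip, which binds thioredoxin and limits glucose uptake, fell by 1.13, with 0.29 by its other probe, and Prdx1, a peroxiredoxin, by 0.95. Gpx7 had the largest fall of the list (-2.67 ± 0.51), and in CKO it was well above background on 1 of 4 arrays. Ubiquitin ligase scaffold and F-box genes rose in 14 and fell in 10 of 82, where 7.83% of all genes rose and 10.9% fell. With the slide as a block limma called 2 higher and 2 lower, against 1.17% and 0.649% of all genes. Over all arrays the largest rises of the list were those of Klhl6, Ube2e2, Fbxo27 (1.71 ± 0.36) and Fbxo17 (1.53 ± 0.50), and the largest fall that of Klhl5 (-1.78 ± 0.23). Of 22 circadian clock genes 3 rose and 1 fell. Per2, a repressor of the clock, stood at -3.55, -3.64, -3.52 and -3.44 in WT and at -2.77, -2.93, -2.74 and -2.76 in CKO (0.74 ± 0.14), Per3 was above background in CKO only (at least 1.65-fold higher) and Bhlhe40 rose. Arntl (BMAL1), which drives Per genes, read -0.30, -0.19, -0.20 and -1.47 in WT and -2.07, -1.34, -1.26 and -1.38 in CKO, and the call of its fall, by 0.97, was lost without any 1 of WT arrays 1 to 3 or CKO array 1 (limma adjusted p = 0.063 to 0.092). The time of day of sampling is not given in the labels.

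Of 52 glycosylation enzymes tested 7 rose and 11 fell, with 12 and 6 on the brightest-probe scale. Over all genes the shares were 7.83% and 10.9%, and 14% and 4.01% on the brightest-probe scale. Falls included enzymes that build and transfer the precursor of N-glycans in the endoplasmic reticulum, Alg3 (-1.01 ± 0.20) and Stt3b, a catalytic subunit of oligosaccharyltransferase (-0.94 ± 0.12), and the sialyltransferases St8sia6 (-1.32 ± 0.18) and St6gal1 (-1.16 ± 0.17). Other probes of Stt3b and St6gal1 gave -0.40 and 0.16, and those of St8sia6 -1.34 to -0.33. Rises included enzymes of the Golgi: Mgat5, which branches N-glycans (1.10 ± 0.31), Man2a2 (1.07 ± 0.18) and Man1a (0.97 ± 0.16). On chromatin, 10 of 122 remodelling and histone modifier genes rose and 11 fell, against 27 and 2 on the brightest-probe scale, beside the same shares of all genes. With the slide as a block 1 of each was called by limma in both lists, against 1.17% of all genes higher and 0.649% lower. A list of 15 long noncoding RNA genes had 3 rises and 2 falls, but 1 of the rises, Resf1, encodes a protein. Malat1, an abundant nuclear RNA, rose by 1.18 ± 0.40, with WT array 4, at 8.07, inside the CKO range of 7.61 to 8.48.

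Genes that rose lay next to each other more often than their share of all genes. Among 12818 genes whose place on a chromosome was known, 6.72% rose and 12% fell. Of the tested neighbours of genes that rose 11.8% rose too, and of those of genes that rose by at least 2 it was 19.8%. Of the neighbours of genes that fell 15.6% fell. There were 11 runs of at least 3 neighbouring genes that rose, with 48 genes in all and the longest of 8, and 38 such runs of falls, with 121 genes and the longest of 4. These are counts on the same calls and carry no test. Probes of neighbouring genes of 1 family may read the same transcripts, which was not tested.

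The longest run lay on chromosome 4 and held zinc finger genes. From Vps13d to Zfp985 the 8 tested genes rose, by 0.90 to 1.47 on the log2 scale. Zfp982, a zinc finger gene of early embryos and stem cells, read -0.06, 0.05, 1.41 and 0.14 in WT and 2.00, 2.33, 1.07 and 2.02 in CKO. WT array 3 was the highest WT array for Zfp982, Rex2 and Zfp987, and CKO array 3 the lowest CKO array. On slide 3 the differences were -0.33 for Zfp982, -0.01 for Rex2 and 0.21 for Zfp987, against 1.46 to 2.28 on slides 1, 2 and 4. On the same slide Tnfrsf1b, a tumour necrosis factor receptor inside the run, differed by 2.27, its highest. A second probe of Zfp982 gave 0.00 and that of Vps13d -0.18, and with the slide as a block 0 of the 8 genes were called by limma (8 at an unadjusted p under 0.05, limma adjusted p = 0.0643 to 0.14).

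On chromosome 16 a run of 5 held Cbr3, a carbonyl reductase, Dop1b, a trafficking protein (2.52 ± 0.15, other probe 1.20), the noncoding 2310043M15Rik, Morc3, a nuclear ATPase of silenced chromatin (1.50 ± 0.13), and Chaf1b, a subunit of the histone chaperone CAF-1 (1.11 ± 0.16). The run ended sharply: Cbr1, the neighbour and relative of Cbr3, differed by -0.19 ± 0.20 (limma adjusted p = 0.520), and Cldn14 on the other side by 0.10 ± 0.33 (limma adjusted p = 0.853). Elsewhere on the same chromosome Arhgap31 (0.85 ± 0.12), B4galt4, Upk1b, a membrane protein of bladder, and Zbtb20, a zinc finger repressor (0.74 ± 0.20), rose in a row. On chromosome 10 Ddt (2.00 ± 0.22) and 4 theta glutathione transferase genes rose together, whereas Mif, the relative of Ddt beside them, differed by -0.20 ± 0.19 (limma adjusted p = 0.501). On chromosome 5 Ap4m1, Taf6, Cnpy4, Mblac1 and Nxpe5 rose, and Stag3, a meiotic cohesin, rose by 2.62 ± 0.45 with Map11 between (-0.04 ± 0.13, limma adjusted p = 0.836).

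In several places a large rise and a large fall were neighbours. Hid1, which fell by 3.07, lay beside Cdr2l, which rose from -1.76, -1.64, -2.51 and -1.84 to 2.50, 2.50, 2.89 and 2.35 (4.50 ± 0.20) on chromosome 11. Elsewhere on that chromosome Peli1 and Lgalsl (-2.79 ± 0.63) fell beside Vps54, a tethering factor of the Golgi, which rose from 2.29, 2.31, 2.24 and 2.46 to 4.40, 4.00, 4.21 and 4.37 (1.92 ± 0.13). Rnf43, a ubiquitin ligase of Wnt receptors, fell by 2.22, and Tspoap1, with Supt4a between them, rose by 2.83 ± 0.42. On chromosome 2 Mindy3 rose next to Pter, which fell by 1.78. Also there Ctcflos, a noncoding gene above background in CKO only (at least 1.65-fold higher), lay near Pmepa1, which fell by 2.73, with Zbp1 between (0.34 ± 0.26, limma adjusted p = 0.372). The genes further out on either side of Hid1 and Cdr2l were not called. Around Trim28 itself Slc27a5, of the fatty acid transport protein family, rose by 1.02 ± 0.18, while its neighbours Zbtb45, Chmp2a and Ube2m fell by 0.45 to 0.55 on the log2 scale, and on the brightest-probe scale 0 of the 3 that fell were called by limma (2 at an unadjusted p under 0.05, limma adjusted p = 0.0514 to 0.209).

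**Figure D4:**
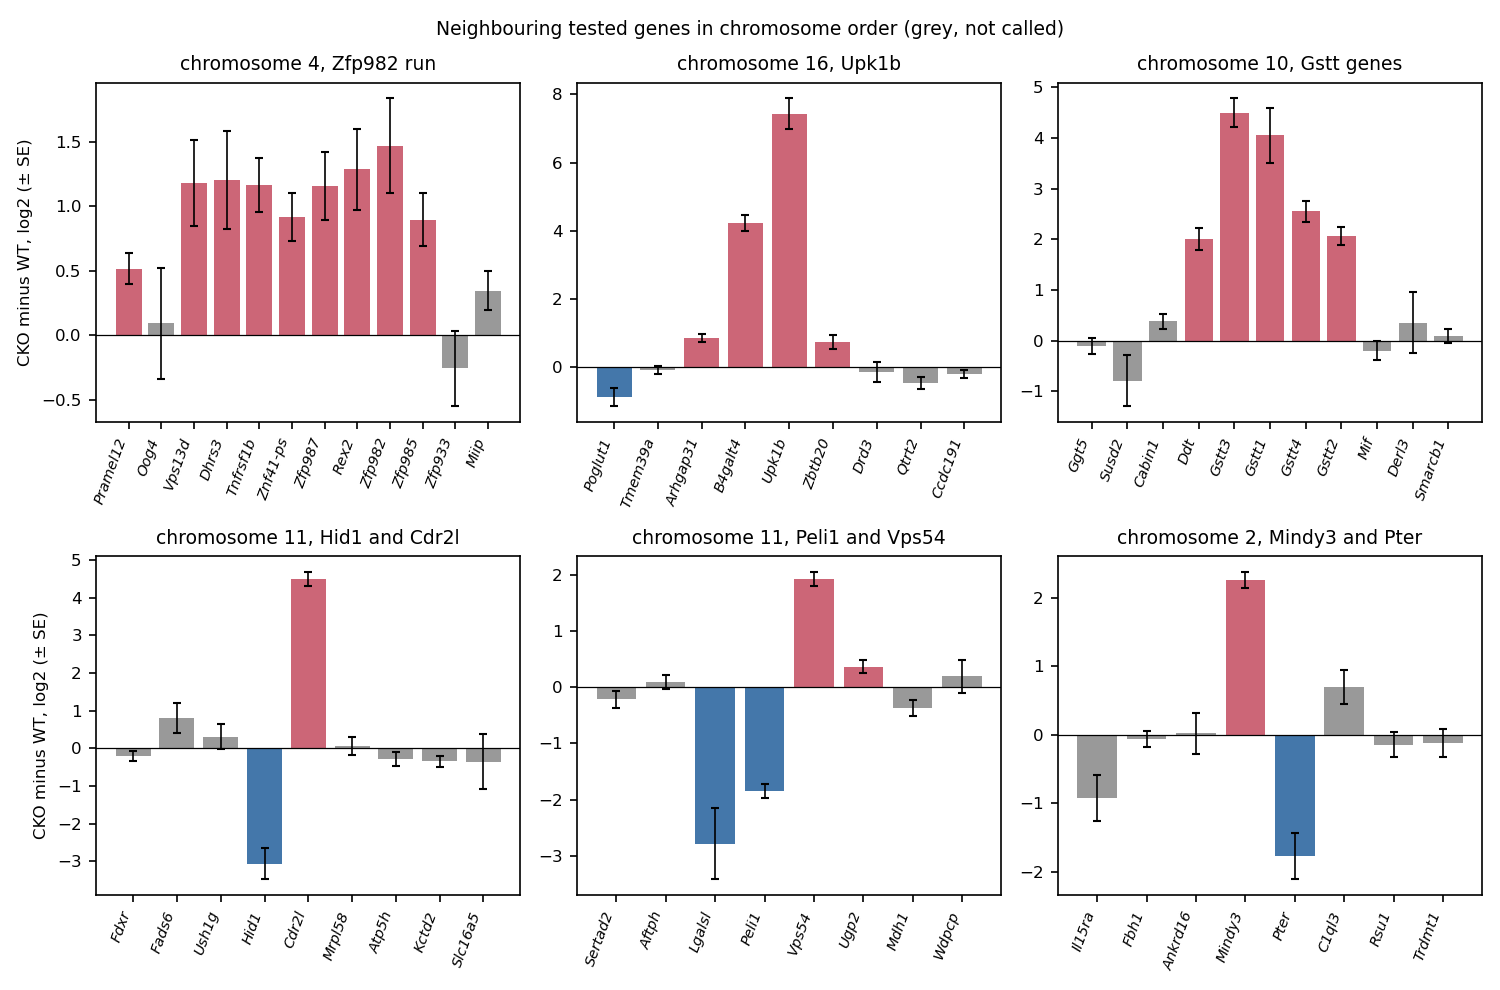
Differences between CKO and WT resting naive CD4 cells (y axis, log2, bars with the standard error) for tested genes in chromosome order (x axis) at 6 places, red where called higher, blue where called lower and grey where not called. The run on chromosome 10 ends at Mif (-0.20), and Hid1 and Cdr2l, Peli1 and Vps54, and Mindy3 and Pter are neighbours of opposite direction.

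Markers of other cells differed between arrays of a group. Calls among them are read against 7.83% of all genes that rose and 10.9% that fell. The summed level of 17 B cell markers was 4.25 to 5.96 in WT and 5.38 to 7.12 in CKO, with CKO arrays 1 and 2 the highest, and 3 of 17 rose. For 15 markers of CD8, NK and unconventional T cells it was 4.30 to 5.05 in WT and 4.54 to 5.74 in CKO, again highest on CKO arrays 1 and 2, and 4 rose and 1 fell. Of 23 myeloid and dendritic markers none was called by limma (1 was higher and 1 lower at an unadjusted p under 0.05), with sums of 6.81 to 8.09 in WT and 6.80 to 8.72 in CKO. For 5 genes of the stromal and endothelial list the sums were 4.77 to 5.19 in WT and 4.91 to 5.49 in CKO. The member that rose was Epcam, an epithelial gene that the list held (2.26). For 20 markers of Treg and memory cells they were 6.85 to 7.55 in WT and 7.40 to 7.92 in CKO, and 7 rose and 1 fell. Not detected were Blk of the B cell list, Elane and Siglech of the myeloid list, Klrk1, Zbtb16 and Trgc2 of the CD8 and NK list, and 9 of 14 stromal and endothelial genes, among them Col1a1, Cdh5 and Kdr. In bulk RNA fewer cells of a type and less RNA per cell cannot be told apart.

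**Figure D5:**
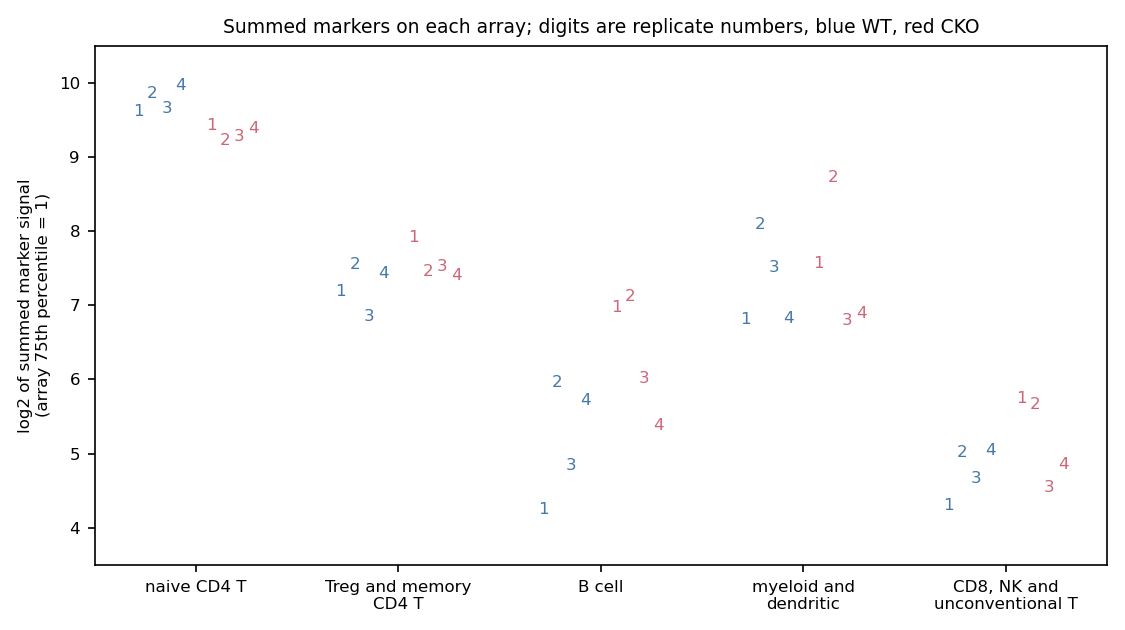
Summed marker signal of 5 cell types (y axis, log2, with the array's 75th percentile as 1) on each of the 8 arrays, where digits are replicate numbers, blue for WT and red for CKO. Naive CD4 markers are lower on all 4 CKO arrays, and B cell and CD8 and NK markers are highest on CKO arrays 1 and 2.

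Some runs and single rises moved with those arrays. The Klra genes, which encode Ly49 receptors of NK cells, formed a run of 5 on chromosome 6. Klra7 stood at -2.06, -1.21, -0.72 and -0.35 in WT and at 1.99, 1.91, -0.29 and 0.11 in CKO, so that CKO arrays 3 and 4 lay near the WT range. In a fit of the arrays whose summed B cell markers were alike, WT arrays 2 and 4 and CKO arrays 3 and 4, the Klra7 difference was 0.69 ± 0.93 against 2.01 ± 0.69 over all arrays. Klrb1c, the NK receptor NK1.1, went from 1.76 to 0.47 in that fit, and S1pr5, which guides NK cell exit, from 2.08 to 0.50. Limma called 0 of these 3 there (0 at an unadjusted p under 0.05, limma adjusted p = 0.687 to 0.734). WT arrays 2 and 4 were also the highest WT arrays for the summed CD8, NK and unconventional T cell markers (5.02 and 5.05). CKO arrays 3 and 4 were the lowest CKO arrays for them (4.54 and 4.86). The choice of arrays thus favoured smaller differences of NK genes, and the fit cannot show where these rises come from.

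Other large changes varied in how they fared in the same fit, which was chosen after seeing the data and uses 4 of the 8 arrays. Of the 173 called genes that differed by at least 2 on the log2 scale 107 were also called with these 4 arrays. The 4 arrays are among the 8 that gave the calls, so the count is no separate check. Pgpep1l differed by 4.37 ± 0.46, Ak7 by 4.23 ± 0.26, Trim24 by 3.20 ± 0.18, Nacc2 by -3.76 ± 0.50, Peli1 by -1.71 ± 0.19 and Cthrc1 by 5.85 on the fitted scale. Others were smaller there and not called by limma: Ly6d, a surface protein of the Ly6 family, went from 2.27 to 1.17, Stag3 from 2.62 to 2.07, Mybpc2 from 2.29 to 1.58 and Cables1, a regulator of cyclin-dependent kinases, from 1.77 to 0.56 (limma adjusted p = 0.479, 0.121, 0.295 and 0.342). In all, 276 genes were called, 165 higher and 111 lower.

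The genotype difference in resting cells was also set against that in stimulated cells or Treg in the same model. For 564 genes (3.42%) the genotype difference in resting cells differed from that in stimulated cells, and for 65 (0.394%) it differed from that in Treg. The difference was more positive at rest for 214 of the 564 and more negative for 350. Of the 564, 241 were also called in resting cells. Among these 241, 86 rises and 126 falls were larger in resting cells, and 25 rises and 4 falls were smaller. Choosing genes by a call at rest favours large differences at rest, so the split into larger and smaller was partly fixed by the choice. Ak7 rose by 4.42 in resting and differed by 0.24 ± 0.19 in stimulated cells, an interaction of 4.18 ± 0.27 (limma adjusted p = 1.09e-08), with the gene above background on all arrays of both states. B4galt4 differed by 0.64 ± 0.23 after stimulation (interaction 3.59 ± 0.32) and Trim24 by 1.13 ± 0.14 (interaction 2.03 ± 0.19). Falls that were larger at rest included those of Pde2a, which differed by 0.87 ± 0.19 after stimulation (interaction -2.94 ± 0.27), Peli1 (-0.12 after stimulation) and Myo10, an unconventional myosin (-0.03 ± 0.36, interaction -2.45 ± 0.50). Pmepa1, which fell by 2.73 at rest, differed by -0.07 ± 0.32 after stimulation. Lama4, Cnr1 and Adgrg5 rose at rest but were above background on at most 1 array of a group after stimulation, so their interactions rest on low signals.

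Against Treg, 45 of the 65 genes were also called in resting cells. Cybrd1, a plasma membrane ferric reductase, rose at rest from -4.33, -4.57, -4.76 and -4.61 to -1.27, -1.76, -1.60 and -1.90 (2.94 ± 0.22) and differed by -0.70 ± 0.22 in Treg (interaction 3.64 ± 0.31, limma adjusted p = 7.28e-07). Nrp1, the semaphorin receptor neuropilin-1 that marks thymic Treg, rose by 2.04 ± 0.33 at rest and differed by -0.38 ± 0.33 in Treg (interaction 2.42 ± 0.46). Osbpl3 rose by 1.79 ± 0.24 in Treg, less than at rest (interaction 2.13 ± 0.33). Ube2e2 and Cables1 rose more in Treg, by 4.62 ± 0.24 and 4.47 ± 0.38 (interactions -1.92 ± 0.34 and -2.71 ± 0.54). Nacc2 differed by -0.92 ± 0.33 in Treg, where it was above background on 2 WT arrays and no CKO array.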

How the data were processed

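The samples were hybridised to 24 single-colour Agilent whole mouse genome arrays, scanned and read with Agilent Feature Extraction 9.5, per the submitters' processing notes. The deposited spot intensity used was the processed signal, which is background-subtracted per the file headers, and control spots were left out. The authors' deposited table of normalized intensities, put on the log2 scale, served as an alternative, and its processing is not given in the sources used here. Its count of calls (3008) was close to that after quantile normalization (3009). Signals were put on the log2 scale, spots flagged as outliers were removed, spots of a probe averaged and the 75th percentile of each array subtracted. A probe was kept where 3 or more of the 4 arrays of any group called it well above background (25198 of 41174 probes), and each of 16489 genes was represented by its brightest kept probe. Probes were named through RefSeq by accession (22951), symbol (6659) or synonym (3109), and 8455 kept the name in the files. limma 3.58.1 in R 4.3.3 was fitted to all 24 arrays, with Benjamini-Hochberg adjustment, and checked on simulated data.

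Genes named are the largest called changes over all genes, by class of level, among genes above background in 1 genotype, in each of 57 lists, in runs of neighbouring calls and among interactions. Further genes from the set called under 17 settings, second members of the lists, and neighbours were chosen after their values were seen. The lists and members were chosen with earlier results of these data known. Promoters and gene order came from RefSeq, build GRCm38.p6. The brightest-probe scale centres each array on its brightest probes that were well above background on all 24 arrays. Alternatives changed the arrays fitted, block, normalization, background correction, filter, probe summary and weights. The number of arrays limits the precision.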

Additional observations from a re-analysis of the deposited data

Results flagged for a closer look

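In a group of 4 arrays, 1 array stood apart where its gap to the nearest other, as a share of the whole range, passed Dixon's 95% critical value, and chance alone marks about 1 group in 20. WT array 4 stood apart for Hdac4 (0.915), Dnah8 (0.856), Man2a2 (0.848), Lama4 (0.944), Abca6 (0.863) and Ntng1 (0.833), where it was the highest. The same array was the lowest WT array for Eif3f (0.833), Nup37 (0.866), Rtcb (0.873), Kcnn4 (0.908), St8sia6 (0.866), Arntl (0.918) and Ddr1 (0.929). For Lama4, Abca6 and Ntng1 no WT array was well above background, so these gaps concern low signals. The other cases were spread over arrays: WT array 2 for Gzmk (0.889), Ms4a6b (0.861) and Stx1a (0.840), WT array 3 for Zfp982 (0.862), CKO array 1 for Lrrc75b (0.886) and Arntl (0.852), CKO array 3 for Gpx7 (0.891) and Ampd1 (0.861), and CKO array 4 for Rfx3 (0.846) and Dyrk4 (0.941). WT array 4 was 1 of the 2 arrays from mice of 7 weeks, and age and slide cannot be told apart in it. CKO array 4 had the same age and slide and stood apart only for Rfx3 and Dyrk4. The 75th percentile of the signal was lowest on WT array 4, at 165. What set WT array 4 apart was not tested.

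The genotype difference in resting cells differed from that in stimulated cells, by limma's interaction term, for Lama4 (4.48), Adgrg5 (4.25), Ak7 (4.18), Rab15 (3.87), Cnr1 (3.71), B4galt4 (3.59), Ccl3 (3.16), Cthrc1 (3.01) and Trim24 (2.03), all more positive at rest. It was more negative at rest for Pde2a (-2.94), Ntrk3 (-2.87), Pmepa1 (-2.67), Myo10 (-2.45) and Ampd1 (-2.30). Ccl3, a chemokine, rose by 1.53 at rest and differed by -1.64 after stimulation. Ntrk3 fell by 1.81 at rest and differed by 1.07 after stimulation. After stimulation no WT array had Ampd1, the AMP deaminase of muscle, well above background. Cthrc1 was above background in CKO only in both states.

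Against Treg the difference was more positive at rest for Cybrd1 (3.64), Ntng1 (3.42), Nrp1 (2.42), Osbpl3 (2.13), Sntb2 (1.87) and Rbpms2 (1.82), and more negative for Cables1 (-2.71), Nacc2 (-2.66) and Ube2e2 (-1.92). Ntng1 was not well above background on any Treg array. The values of these interactions under other settings are among those counted with the processing alternatives.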

How the results depend on the processing

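Counts below are genes called, higher and lower in CKO resting cells unless stated. The fit of only the 8 arrays called 1700 (689 and 1011). Normexp background correction gave 389 (164 and 225), with 2 genes above background in CKO only and 0 in WT only, and 71 interactions with stimulation and 7 with Treg. Without the filter on dim probes there were 1801 (794 and 1007) and 297 interactions with stimulation. Keeping probes well above background on all 8 arrays leaves 0 and 0 genes above background in 1 genotype by construction, and gave 26 interactions with Treg. The brightest-probe scale gave 2303 higher and 661 lower. Array weights gave 6430 (3065 and 3365), with 2398 interactions with stimulation and 939 with Treg. With low signals raised to the detection limit, 3 genes were above background in CKO only and 0 in WT only, and interactions numbered 865 and 246. Interactions with Treg numbered 102 after quantile normalization and 101 in the authors' value table. The arrays alike in B cell markers, chosen after seeing the data, gave 276 (165 and 111), 32 and 3 genes above background in 1 genotype, and 93 and 19 interactions. Leaving out 1 array gave 1385 (without WT array 2) to 4591 (without WT array 4) genes, 638 to 2195 higher and 747 to 2396 lower, 59 to 81 and 12 to 23 above background in 1 genotype, 372 (without CKO array 2) to 772 interactions with stimulation and 54 to 358 (without WT array 4) with Treg. For the remaining changes the cause was not tested.

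The replicate number, which is also the slide, was fitted as a replicate block on the 8 arrays alone. In that fit 300 genes were called (193 and 107), with 41 above background in CKO only and 8 in WT only. Correlations of deviations between same-numbered arrays were -0.21, 0.17, -0.12 and 0.05. WT and CKO arrays of a number share a slide, and the block removes what a slide shares.

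Of 183 gene differences and interactions tested under the settings that kept all 8 compared arrays or the arrays alike in B cell markers, 59 kept direction and call throughout, 124 lost the call under at least 1 and 1 reversed. Timm9 reversed with the mean of its probes (0.050). Genes near background have only bounds, and few arrays limit the precision of all values.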
